A study of Homo sapiens with 12 samples.

Results

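The 9 genes followed here are the enzymes that make and modify fatty acids and the SREBP transcription factors that control their genes: ACLY, ACACA, FASN, SCD, ELOVL6, FADS1, FADS2, SREBF1 and SREBF2. They were chosen from a list of 11 Ensembl transcript identifiers drawn up for these 9 genes by name; the rule itself uses no measured value, but the group was chosen with earlier results of these data known. For ACACA and SREBF1, which had alternative identifiers on the list, the one present in both tables was used. The 9 transcripts were found among the 19686 of the RNA table and the 19849 of the footprint table. The cells were RKO, a human colon cancer line labelled WT, in DMEM without arginine of its own and with dialyzed serum in every group; fed cells received 400 uM and starved cells 12.5 uM arginine for 24 hours. RNA-seq (transcript level) and ribosome profiling (sequencing of the fragments that ribosomes protect, called footprints) were run side by side with 3 libraries per group, 12 in all. Whether the replicates were separate cultures is not said in the labels, so p-values may reflect only technical spread.

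Fatty acids are built from citrate that leaves the mitochondrion. ACLY cleaves it to acetyl-CoA, ACACA carboxylates acetyl-CoA to malonyl-CoA in the committed step, and FASN joins these units to palmitate. ELOVL6 lengthens palmitate, SCD places the first double bond to give monounsaturated fatty acids, and FADS2 and FADS1 add further double bonds on the way to polyunsaturated fatty acids. SREBF1 and SREBF2 encode SREBP precursors that are held in the endoplasmic reticulum while sterols are plentiful and are cleaved to release a nuclear factor when sterols fall. SREBP-1 is known mainly for genes of fatty acid synthesis and SREBP-2 for genes of cholesterol synthesis, and both bind sterol regulatory elements in promoters, usually beside sites for NF-Y and Sp1. The activity of SREBP proteins is set largely by this cleavage, which neither assay measures.

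Promoter sequences are shown for SREBF2 and SREBF1, the paralogous factors whose values are compared below, and for SCD, the member with a called change of translational efficiency. They are the 250 bases before the RefSeq transcription start (GRCh38.p14), at chr22:41832855-41833104 on the plus strand for SREBF2, chr17:17836987-17837236 on the minus strand for SREBF1 and chr10:100346983-100347232 on the plus strand for SCD, each written 5′ to 3′ along its gene. Capitals mark matches, on either strand, to the NF-Y motif CCAAT and to the Sp1 motif GGGCGG.
SREBF2: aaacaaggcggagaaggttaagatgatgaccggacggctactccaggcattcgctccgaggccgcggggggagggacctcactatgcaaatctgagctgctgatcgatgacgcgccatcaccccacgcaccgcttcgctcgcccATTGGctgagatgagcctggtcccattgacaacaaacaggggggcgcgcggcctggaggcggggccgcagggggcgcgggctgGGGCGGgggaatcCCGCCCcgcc
SREBF1: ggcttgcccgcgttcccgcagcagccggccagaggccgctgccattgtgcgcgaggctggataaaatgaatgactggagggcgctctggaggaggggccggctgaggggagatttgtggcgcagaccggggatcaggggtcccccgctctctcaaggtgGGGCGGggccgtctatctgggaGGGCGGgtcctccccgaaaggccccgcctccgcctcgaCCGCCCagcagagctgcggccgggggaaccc
SCD: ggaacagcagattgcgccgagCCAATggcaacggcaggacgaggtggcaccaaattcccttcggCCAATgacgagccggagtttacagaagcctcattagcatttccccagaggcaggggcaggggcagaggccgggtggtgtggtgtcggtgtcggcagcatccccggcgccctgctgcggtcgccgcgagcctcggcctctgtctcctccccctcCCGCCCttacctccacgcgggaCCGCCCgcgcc

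RefSeq windows of 300 bases, 250 before and 50 after the start, were matched for 8 of the 9 genes, all but FASN, and numbered 12 because some genes have several starts. CCAAT was found, on either strand, in 7 of the 12 windows and in 34.6% of all 35116 windows of this length, and GGGCGG in 10 of the 12 and in 45.0% of all. The ACLY windows overlap and hold the same matches, which were thus counted in each. The FADS2 windows also overlap, so the 12 are not all separate stretches. The E-box CACGTG (7.26% of all windows) and the amino acid response element core TGATGNAA (3.62% of all windows) had no match in the 12. These are matches of letters and show no binding, and sites outside these windows were not searched.

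Across the members, 6 of the 8 that could be tested were called lower in both assays after 24 hours of low arginine: ACLY, FASN, SCD, ELOVL6, FADS2 and SREBF2. Of all tested transcripts, 34.1% were called lower in RNA and 20.9% in footprints, each assay taken alone. The share called lower in both was not computed. FADS2 and SCD changed most, to 17.5% and 49.9% of the fed level in RNA and to 25.2% and 31.5% in footprints. FADS2 passed the filter on low counts only with its fed libraries, which favours genes that are lower in starved cells. ACACA was called higher by a small margin in RNA and was not called in footprints, and SREBF1 was called in neither. FADS1 had too few counts in both assays for a test. Called here means a Benjamini-Hochberg adjusted p under 0.05 over all transcripts in edgeR's quasi-likelihood test, with TMM factors to scale libraries.

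Such counts stand against a wide response of the whole cell. Of 11572 transcripts tested in RNA, a further 33.8% were called higher in starved cells, and of 13457 tested in footprints a further 18.9%. The median log2 fold change of the 8 tested members was −0.52 in RNA and −0.80 in footprints, beside −0.01 and 0.05 over all transcripts tested. The SD of the log2 fold change over all transcripts tested was 0.82 in RNA and 0.73 in footprints. No test of the group as a whole was made. Every change is measured against the rest of the same assay, and RNA totals of 4670881 to 7967215 counts and footprint totals of 2063952 to 4364383 counts set the precision. Without TMM factors the median over all transcripts was −0.12 in RNA, so that small changes depend on the scaling, and 4675 transcripts were called lower and 3192 higher in RNA, against 3951 and 3911 with them.

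**Figure D1:**
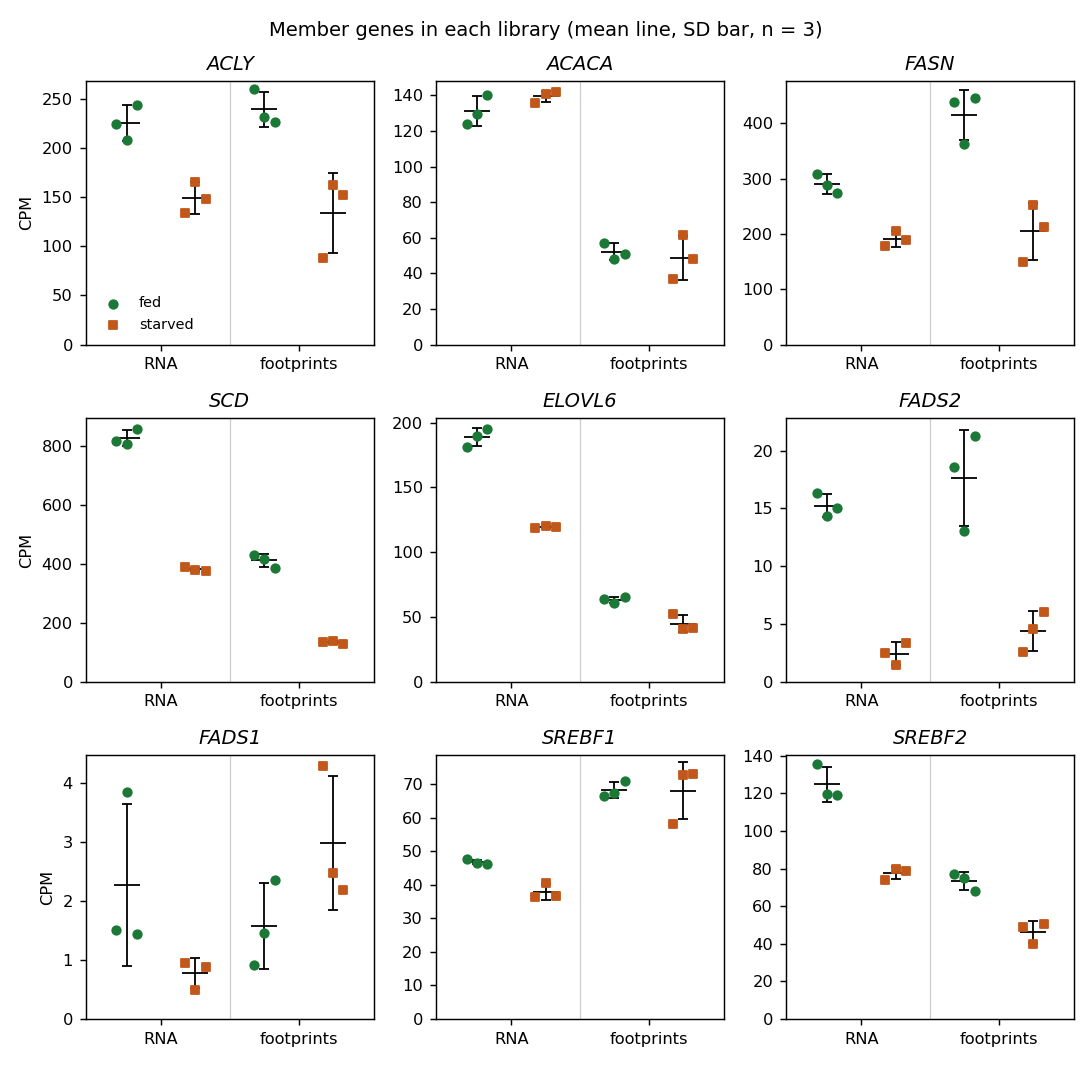
Counts scaled to library size (CPM) of the 9 genes in each library, with RNA on the left and footprints on the right of each panel. Circles are fed and squares starved libraries in order of replicate number, the line is the mean and the bar the SD of 3 libraries. In both assays the starved libraries of ACLY, FASN, SCD, ELOVL6, FADS2 and SREBF2 all lie below the fed libraries. The share of all transcripts whose groups lie apart was not computed.

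Of the enzymes that build palmitate, ACLY (ENST00000352035) had 224, 208 and 244 CPM (counts per 1000000 counts of the library) in the fed RNA libraries, replicates 1 to 3, and 133, 166 and 149 CPM in the starved ones. Its footprints were 259, 231 and 227 CPM in fed and 87.7, 162 and 153 CPM in starved libraries. All starved libraries lay below all fed libraries in both assays, and starved footprint replicate 1 was well below the other two. How common such a gap between groups was among all transcripts was not computed, here or for the genes below. The fitted log2 fold change was −0.49 in RNA (SE 0.07, edgeR adjusted p = 2.49e-08) and −0.88 in footprints (SE 0.19, edgeR adjusted p = 0.00324). Fitted changes use TMM factors and can therefore differ from the ratio of the CPM values. In footprints 9.74% of all tested transcripts had a lower fold change than ACLY, and in RNA 22.9%.

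FASN (ENST00000306749), the multifunctional synthase itself, had 309, 288 and 273 CPM of RNA in fed and 178, 206 and 189 CPM in starved libraries. Footprints on it were 437, 362 and 445 CPM in fed and 149.7, 252 and 212 CPM in starved libraries. The groups did not overlap in either assay. RNA fell to 71.0% of the fed level (log2 fold change −0.49, SE 0.07, adjusted p = 6.15e-09 in edgeR). Footprints fell to 47.9% (log2 fold change −1.06, SE 0.17, adjusted p = 0.000451 in edgeR). In footprints 6.49% of all tested transcripts had a lower fold change than FASN, and in RNA 22.6%.

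ACACA (ENST00000616317), the carboxylase between ACLY and FASN, was not called lower in either assay. Its RNA was 124, 129.5 and 140.3 CPM in fed and 136, 141 and 142 CPM in starved libraries, and its footprints were 57.3, 48.0 and 51.0 CPM in fed and 36.8, 61.5 and 47.8 CPM in starved libraries. The groups overlapped in both assays on this scale. With TMM factors the RNA was called higher by 0.20 log2 units (SE 0.07, edgeR adjusted p = 0.0111). That call was lost with library totals alone (0.09, edgeR adjusted p = 0.280), with the trend of change with abundance taken out of every library (0.03, edgeR adjusted p = 0.721), without fed RNA replicate 1 (0.16, edgeR adjusted p = 0.0575) and without starved RNA replicate 3 (0.18, edgeR adjusted p = 0.0589). The footprint change of −0.14 had a 95% interval from −0.54 to 0.25 (edgeR adjusted p = 0.546), and single libraries moved it, to −0.35 (edgeR adjusted p = 0.125) without starved replicate 2 and to −0.02 (edgeR adjusted p = 0.949) without starved replicate 1. That interval overlaps the one for ACLY (−1.29 to −0.46), and the difference between the genes was not tested.

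**Figure D2:**
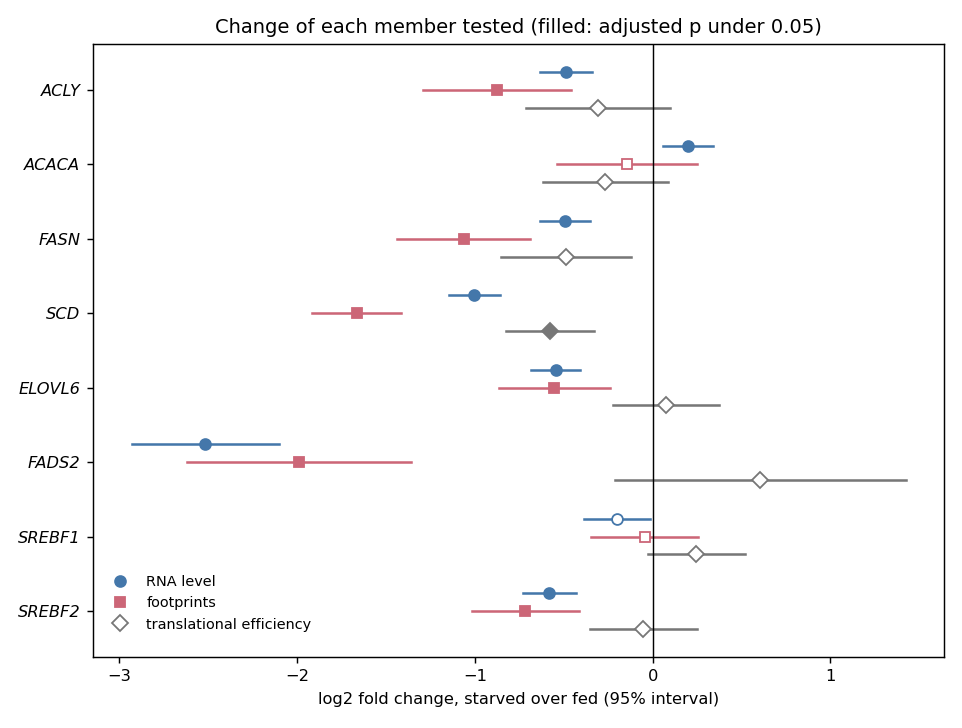
Log2 fold change, starved over fed, of the 8 members tested, with 95% intervals: circles for RNA, squares for footprints and diamonds for translational efficiency (footprints relative to RNA). Filled symbols passed the adjusted threshold of 0.05; ACLY, FASN, SCD, ELOVL6, FADS2 and SREBF2 are filled on the lower side in both RNA and footprints, and SCD alone in efficiency.

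Among the enzymes that modify fatty acids, SCD (ENST00000370355), the desaturase of saturated acyl chains, showed little spread between replicates. It had 817, 808 and 858 CPM of RNA in fed and 388, 380.1 and 377 CPM in starved libraries. Its footprints were 432, 417 and 387 CPM in fed and 133, 140.03 and 129 CPM in starved libraries. The spread within each group was small beside the gap between groups. RNA fell by 1.004 log2 units (SE 0.07, edgeR adjusted p = 6.29e-20) and footprints fell by 1.67 (SE 0.11, edgeR adjusted p = 8.05e-07). In footprints 1.73% of all tested transcripts had a lower fold change than SCD, and in RNA 8.67%.

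ELOVL6 (ENST00000302274), the elongase that acts on palmitate, had 181, 189.9 and 195 CPM of RNA in fed and 119, 120.1 and 119.6 CPM in starved libraries. Its footprints went from 63.7, 61.0 and 65.6 CPM in fed to 52.6, 41.0 and 41.3 CPM in starved libraries. The groups were apart in both assays, with starved footprint replicate 1 the nearest to the fed group. The fitted changes were much alike, −0.55 in RNA (SE 0.07, edgeR adjusted p = 3.05e-10) and −0.55 in footprints (SE 0.14, edgeR adjusted p = 0.00878). In RNA 20.4% of all tested transcripts had a lower fold change than ELOVL6, and in footprints 18.7%.

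FADS2 (ENST00000278840), which carries out the entry step of polyunsaturated fatty acid desaturation, fell furthest of the tested members in both assays. Its RNA counts were 130, 67 and 104 in fed libraries (16.3, 14.3 and 14.99 CPM) and 18, 9 and 23 in starved libraries (2.46, 1.45 and 3.39 CPM). Footprint counts were 81, 27 and 45 in fed (18.6, 13.1 and 21.2 CPM) and 6, 13 and 22 in starved libraries (2.57, 4.60 and 6.01 CPM). Every starved library lay below every fed library. Starved RNA replicate 2 had 9 counts and starved footprint replicate 1 had 6, too few for the starved libraries alone to pass the filter on low counts. FADS2 passed it only with its fed libraries. Passing in this way favours genes that are lower in starved cells, which limits what the ranks below show. RNA changed by −2.52 log2 units (SE 0.21, edgeR adjusted p = 4.88e-17), with 0.622% of all tested transcripts lower, and footprints by −1.99 (SE 0.29, edgeR adjusted p = 0.000205), with 0.862% lower.

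FADS1 (ENST00000350997), the desaturase that acts after FADS2, was close to the limit of detection. Its RNA counts were 12, 18 and 10 in fed and 7, 3 and 6 in starved libraries, and its footprint counts were 4, 3 and 5 in fed and 10, 7 and 8 in starved libraries. In CPM the RNA groups did not overlap (1.51, 3.85 and 1.44 in fed, 0.956, 0.485 and 0.885 in starved), while the footprint groups did (0.917, 1.45 and 2.36 in fed, 4.28, 2.48 and 2.19 in starved). It did not pass the filter on low counts in either assay. Fitted with no filter, its RNA changed by −1.25 log2 units (edgeR adjusted p = 0.00985) and its footprints by 0.89 (edgeR adjusted p = 0.216). In 5 of the fits that left out 1 RNA library it passed the filter. It was called lower in 4 of these, at −1.46 without fed replicate 3, and −1.43, −1.01 and −1.34 without starved replicates 1, 2 and 3 (edgeR adjusted p from 0.00248 to 0.0416), but not without fed replicate 2 (−0.77, edgeR adjusted p = 0.137). In RefSeq the 2 genes lie on opposite strands of chromosome 11 and overlap at their starts. The sources used here do not say that counting used strand. Reads from that stretch could be given to either gene only if both transcripts counted here reach it, which was not checked.

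**Figure D3:**
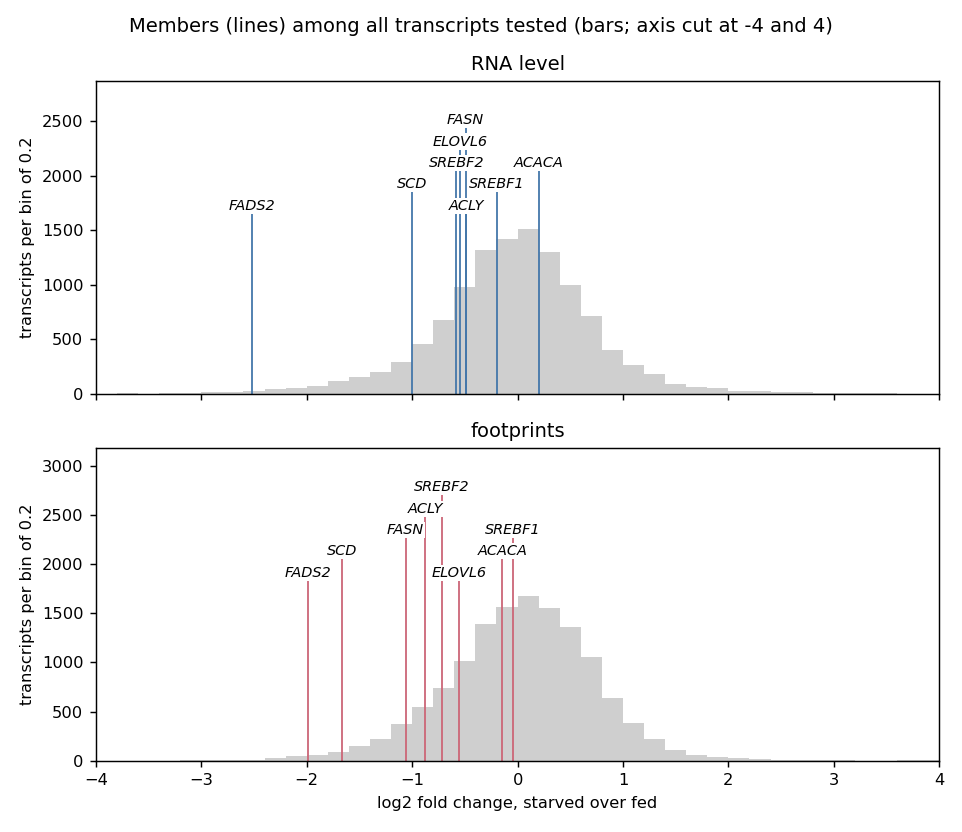
Log2 fold changes of the tested members (labelled lines) against those of all transcripts tested (bars, number per bin of 0.2), for RNA above and footprints below. The axis ends at −4 and 4, which leaves out 31 transcripts in RNA and 13 in footprints; FADS2 lies in the far lower tail in both, at −2.52 and −1.99.

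Of the SREBP genes, SREBF2 was called lower in both assays and SREBF1 in neither. SREBF2 (ENST00000361204) had 135, 119.7 and 119 CPM of RNA in fed and 73.7, 79.5 and 78.9 CPM in starved libraries. Footprints on SREBF2 were 77.0, 75.1 and 68.0 CPM in fed and 48.8, 39.6 and 50.3 CPM in starved libraries. The groups were apart in both assays, and SREBF2 fell by 0.58 in RNA (SE 0.08, edgeR adjusted p = 5.64e-10) and by 0.72 in footprints (SE 0.14, edgeR adjusted p = 0.00150) on the log2 scale. In RNA 19.3% of all tested transcripts had a lower fold change than SREBF2, and in footprints 13.7%.

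SREBF1 (ENST00000355815) had 47.6, 46.5 and 46.3 CPM of RNA in fed and 36.3, 40.4 and 36.6 CPM in starved libraries. Its footprints were 66.4, 67.3 and 70.8 CPM in fed and 58.2, 72.8 and 73.0 CPM in starved libraries. The RNA groups were apart and the footprint groups overlapped. The RNA change of −0.20 (SE 0.09) missed the threshold narrowly (edgeR adjusted p = 0.0514) and passed it with library totals alone (−0.31, edgeR adjusted p = 0.00280), with the abundance trend removed (−0.22, edgeR adjusted p = 0.0320) and with the replicate number as a block (−0.20, edgeR adjusted p = 0.0441). The footprint change was −0.05, with a 95% interval from −0.35 to 0.25 (edgeR adjusted p = 0.816).

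The 2 factors can be compared within each library, where scaling between libraries plays no part. In RNA there were 0.351 to 0.389 SREBF1 counts per SREBF2 count in fed and 0.464 to 0.508 in starved libraries. In footprints the ratio was 0.863 to 1.04 in fed and 1.19 to 1.84 in starved libraries. The groups did not overlap in either assay, and the log2 ratio was higher in starved libraries by 0.38 in RNA and by 0.66 in footprints. Each reached p = 0.1 in an exact two-sided permutation test, the smallest that 3 against 3 libraries allow, and 0.133 after Benjamini-Hochberg adjustment over the 4 ratios computed, so neither could pass a threshold of 0.05. A ratio shows unequal change and not which gene moved.

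**Figure D4:**
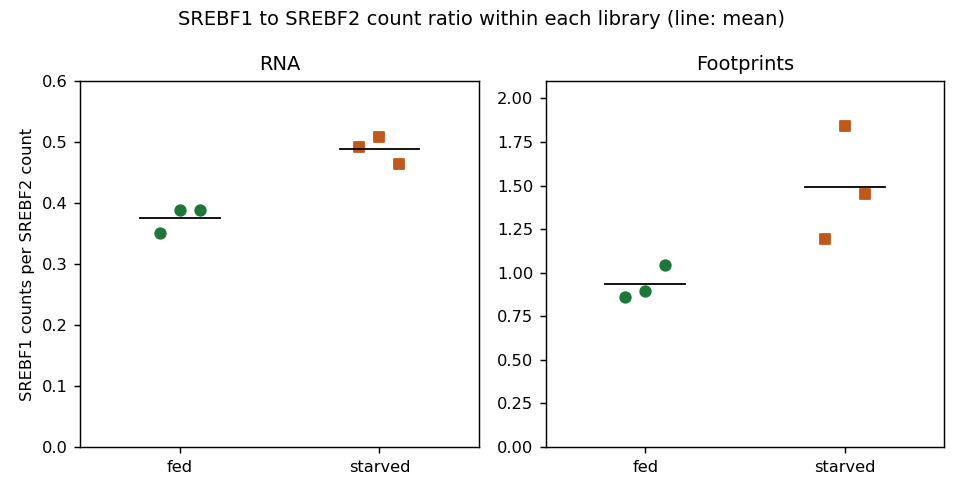
SREBF1 counts per SREBF2 count in each library, RNA on the left and footprints on the right; points are libraries and lines are means of 3. All starved libraries lie above all fed libraries in both assays, from 0.464 against at most 0.389 in RNA and from 1.19 against at most 1.04 in footprints.

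The other 2 ratios were those of FADS1 to FADS2. In RNA there were 0.0923 to 0.269 FADS1 counts per FADS2 count in fed and 0.261 to 0.389 in starved libraries, which overlapped (p = 0.2 by the exact two-sided permutation test, 0.2 once adjusted). In footprints the ratio was 0.0494 to 0.111 in fed and 0.364 to 1.67 in starved libraries, with no overlap (p = 0.1 by the exact two-sided permutation test, 0.133 once adjusted). With 3 to 18 FADS1 counts per library these ratios are imprecise.

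Translational efficiency, the change of footprints relative to the change of RNA, was tested in 1 model of all 12 libraries, as the assay by treatment interaction. Its TMM factors came from the transcripts kept in both assays, while the fit of each assay alone used all that it kept. Efficiency values are therefore not the exact difference of the 2 fitted changes above. Of the 8 tested members 1 was called, SCD, which was lower, where 11.8% of 11027 transcripts were called lower and 11.1% higher. The efficiency of SCD fell by 0.58 log2 units (SE 0.12, 95% interval −0.82 to −0.33, edgeR adjusted p = 0.00155), to 67.0% of its fed value; with the trend of change with abundance removed it was −0.36 (edgeR adjusted p = 0.0328). For FASN the value was −0.49 (SE 0.17, 95% interval −0.85 to −0.12), just outside the threshold (edgeR adjusted p = 0.0503). The FASN call turned on single choices. It passed with TMM factors from each assay's own transcripts (−0.57, edgeR adjusted p = 0.0292), a set used in a first fit before the other was chosen. It also passed without fed footprint replicate 2 (−0.58, edgeR adjusted p = 0.0310) and without starved footprint replicate 2 (−0.66, edgeR adjusted p = 0.00552). The value shrank to −0.33 (edgeR adjusted p = 0.0843) without starved footprint replicate 1 and to −0.24 (edgeR adjusted p = 0.347) with the abundance trend removed.

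No other tested member was called in efficiency. ACLY stood at −0.31 (95% interval −0.71 to 0.10) and ACACA at −0.27 (−0.62 to 0.09), and both moved when single libraries were left out. Without starved footprint replicate 2 ACACA was called at −0.45 (edgeR adjusted p = 0.0343) and ACLY stood, uncalled, at −0.45 (edgeR adjusted p = 0.0945). Without starved footprint replicate 1 they were −0.14 for ACACA and −0.11 for ACLY, and with the abundance trend removed −0.09 and −0.05. SREBF2 stood at −0.05 (−0.35 to 0.25) and ELOVL6 at 0.07 (−0.23 to 0.38), and both changed sign under other settings. SREBF1 stood at 0.25 (−0.03 to 0.52), and at 0.15 with no filter. FADS2 stood at 0.61 with the widest interval (−0.21 to 1.42); it was 0.31 without starved footprint replicate 3, 0.33 without starved RNA replicate 2, 0.91 without starved RNA replicate 3 and 0.27 with the abundance trend removed. These intervals leave room for changes of efficiency in either direction for most of them, so that an uncalled value is not shown to be unchanged.

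In fed cells the members differed in the ratio of footprint CPM to RNA CPM, which was ranked among the 11027 transcripts tested. The part of each transcript that was counted is not given, so ranks between genes need not reflect ribosome load alone. Over library totals SREBF1 had 1.46 and FASN 1.43 footprint CPM per RNA CPM, above 74.6% and 73.7% of transcripts. ELOVL6 had 0.336 and ACACA 0.397, above 10.7% and 15.8%. In starved cells the ratio was lower for SCD (0.497 to 0.352), FASN (1.43 to 1.07), ACLY (1.06 to 0.899) and ACACA (0.397 to 0.350). It was higher for FADS2 (1.16 to 1.80), SREBF1 (1.46 to 1.80) and ELOVL6 (0.336 to 0.376), and close for SREBF2 (0.588 and 0.597). The median over all transcripts was 0.878 in fed and 0.919 in starved cells, but 0.929 and 0.869 with TMM-scaled totals, so the direction of a small shift depends on the scaling. On that scale SREBF2 was 0.622 in fed and 0.564 in starved cells and ELOVL6 0.355 and 0.356, while the other 6 members kept their direction. The TMM factors for these ratios came from each assay's own kept transcripts, and not from those kept in both as in the efficiency model. These ratios of group means have no test.

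**Figure D5:**
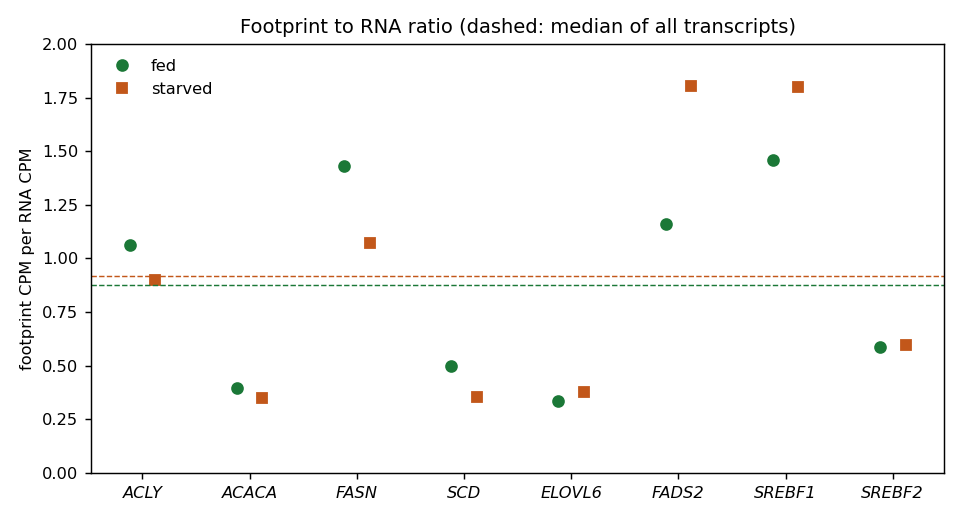
Footprint CPM per RNA CPM of the 8 tested members, from group means over library totals; circles are fed, squares starved, and dashed lines the median of 11027 transcripts in the same colour. SCD is lower in starved than in fed cells (0.352 against 0.497), FADS2 and SREBF1 are higher (1.80 against 1.16 and 1.80 against 1.46), and ELOVL6 and SREBF2 lie close together in the 2 groups.

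Added up, the 9 genes took 0.185 ± 0.00426% of fed and 0.110 ± 0.00334% of starved RNA counts (SD, n = 3). Of footprint counts they took 0.134 ± 0.00682% when fed and 0.0688 ± 0.0104% when starved (SD, n = 3). The lowest starved footprint library was replicate 1, at 0.0574%. That library was also the lowest of its group for ACLY, FASN, ACACA, FADS2 and SREBF1, and the highest for ELOVL6 and FADS1. It was also the least like its group over all transcripts: chi-square per degree of freedom was 6.24 and 7.73 against the other starved footprint libraries, which gave 3.46 between themselves. Its part in the efficiency values of FASN, ACACA and ACLY is given above. Without it efficiency was 0.81 for FADS2, 0.32 for SREBF1, −0.10 for SREBF2 and −0.06 for ELOVL6, all uncalled. The same 6 members were called lower in footprints without it.

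The wider pathway could not be followed in the same way. None of the 19849 identifiers matched the gene tables, and the 32 further genes listed for it, such as regulators of SREBP cleavage and other elongases, as well as markers of the cell line, were not analysed here.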

How the data were processed

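Each assay came as 1 deposited table of unnormalized whole-number counts per Ensembl transcript, a unit that was checked against the values. The submitters' processing notes name cutadapt, STAR, UMI-tools and DESeq2 and the build GRCh38.p13, without roles. Which tool counted, over which part of a transcript and with what treatment of shared reads is not given in the sources used here, so footprints outside the coding sequence may be included. Gene names come from the list that defined the 9 genes. The members, lists and tests were chosen with earlier results of these data known. All 9 genes are named.

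Both tables were fitted whole in edgeR 4.0.16 (R 4.3.3) with the quasi-likelihood F test, two-sided, after filterByExpr (minimum count 10), with treatment as the only term. For efficiency, TMM factors were computed within each assay on the transcripts kept in both; this set was chosen after a first fit with each assay's own kept transcripts, in which FASN was called lower, had been seen, and that first fit is given as the added alternative. Log2 fold changes are starved over fed. The script was run on simulated data in which only a small part of the transcripts was changed. Scaling under a response as wide as the one seen here was not tested in that way. No replicate pair of the 12 within groups was identical, and chi-square per degree of freedom ran from 2.07 to 7.73 over transcripts with 20 or more counts in the pair. Alternatives were DESeq2 size factors, library totals, no filter, the Wald test of DESeq2 1.42.0, a replicate block, removal of the abundance trend (cyclic loess, limma 3.58.1) and leaving out each library; 1 more, other TMM sets for efficiency, was added after the data were seen. Planned protein features, and alternative identifiers for the ratios, were not run, and 1 planned promoter motif with its variant is not reported here.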

Additional observations from a re-analysis of the deposited data

Results flagged for a closer look

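SCD changed by different amounts in the 2 assays under the same treatment. Such a difference was not rare: of 11027 transcripts tested for efficiency, 11.8% were called lower and 8.81% had a lower value than SCD. The log2 fold change of SCD was −1.004 in RNA and −1.67 in footprints, each fitted with TMM factors from that assay's own kept transcripts. The efficiency test, with factors from the transcripts kept in both assays, gave −0.58 (SE 0.12, edgeR adjusted p = 0.00155). With factors from each assay's own transcripts it gave −0.66 (edgeR adjusted p = 0.000542). Over the 19 alternatives run for efficiency the value lay between −0.67 and −0.36, with edgeR or DESeq2 adjusted p between 5.50e-06 and 0.0328, so that the call was kept in each of them. In both assays all 3 starved libraries lay below all 3 fed libraries.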

How the results depend on the processing

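The 6 members called lower in footprints were called lower under all 12 alternatives, and in RNA 6 or 7 were, the seventh being SREBF1 (library totals, trend removed, replicate block) or FADS1 (no filter, and 4 of the fits without 1 library). The count of members called higher in RNA, 1, was 0 with library totals, with the abundance trend removed, and from 0 to 1 with single libraries left out. The count called lower in efficiency, 1, was 2 with DESeq2 size factors, with no filter, with the Wald test of DESeq2 and with TMM factors from each assay's own transcripts, and from 1 to 3 with single libraries left out; the added call was FASN (and ACACA for the 3). With no filter 1 member, FADS1, was called higher in efficiency (2.21, edgeR adjusted p = 0.0376), on 56 RNA and 37 footprint counts in all. The FADS1 RNA value was −0.77 (edgeR adjusted p = 0.137) without fed RNA replicate 2.

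Values near 0 changed sign. For SREBF1 footprints they were 0.0024 with library totals and 0.0228 with the trend removed, and with single libraries left out ran from −0.107 to 0.0308. For SREBF2 efficiency they were 0.0212 with library totals and 0.0892 with the trend removed, and from −0.124 to 0.0485 with single libraries left out. For ELOVL6 efficiency they were −0.0210 with no filter and −0.0107 with TMM factors from each assay's own transcripts, and from −0.0568 to 0.163 with single libraries left out. Without the 10 most abundant transcripts in the denominator the members' shares were 0.215% and 0.127% of RNA in fed and starved libraries and 0.143% and 0.0750% of footprints. The cause of these differences was not tested. Library totals turned the efficiency calls over all transcripts from 1227 higher and 1296 lower to 1472 and 870.

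The replicate numbers showed no clear pairing of the libraries. Deviations of same-numbered fed and starved libraries correlated between −0.01 and 0.10 in RNA and between −0.21 and −0.03 in footprints. Between same-numbered RNA and footprint libraries the values ran from −0.02 to 0.02 in fed and from −0.01 to 0.13 in starved cells. With so few libraries per group this check cannot exclude a pairing. With the replicate number as a block, 7957 transcripts were called in RNA, 4656 in footprints and 2127 in efficiency, against 7862, 5359 and 2523 without it, and SREBF1 was the member whose call changed. The depth limits FADS1 and FADS2 most, with 37 and 194 footprint counts in all.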
